A study of Drosophila melanogaster with 6 samples.

Results

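Sr-CI, Sr-CII and Sr-CIII, croquemort (crq) and draper (drpr) encode receptors with which Drosophila cells take up bacteria, modified lipoproteins or dying cells, and the 5 genes were read across polyadenylated RNA libraries of S2-DRSC cells, a line from late embryos. They were chosen by symbol, as 5 of the 14770 genes in the deposited count tables. The libraries came from untransfected S2-DRSC cells (S2, 4 libraries) and from S2-DRSC cells that carry a stable transgene for AbdA with an HA tag (S2-AbdA, 2 libraries); AbdA is a Hox protein of the abdominal segments. Every culture, controls included, had received 10 µM copper sulphate for 24 h. Cells transfected without AbdA were not among the libraries, so AbdA and the making of a stable line cannot be told apart, and the labels give neither the promoter of the transgene nor the number of clones. Nothing in the labels says that replicates came from separate cultures, so p-values measure the spread between these libraries only, which may be technical.

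Scavenger receptors bind polyanionic ligands such as microbial surfaces and modified lipoproteins. In flies the class C receptors are found on macrophage-like blood cells, and Sr-CI is known as a pattern recognition receptor for bacteria. Croquemort belongs to the CD36 family, the class B scavenger receptors, and is known from the clearance of apoptotic cells by embryonic macrophages. Draper, the fly counterpart of worm CED-1, is an EGF-repeat receptor through which glia and macrophages engulf dying cells and axon debris; Src-family and Shark kinases and the adaptor Ced-6 act on its cytoplasmic tail. S2 cells resemble plasmatocytes, the phagocytic blood cells of the fly, and are widely used to study phagocytosis.

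Library totals ranged from 34233132 to 69858688 counts, so that 3 counts, taken as the floor of detection, stood for 0.0429 to 0.0876 CPM (counts per 1000000 counts of the library). The labels divide the S2 libraries: the descriptions of replicates 1 and 2 name the authors' table of changed genes, and those of replicates 3 and 4 do not. These 2 sets of S2 libraries differed in 37.0% of the 9375 genes tested, with an adjusted p under 0.10 by edgeR's quasi-likelihood test, so the receptor genes are compared with each set apart. For some other genes only part of the comparisons is printed. The abd-A transcript was at 10909 and 17289 CPM in S2-AbdA, at 29.1 and 52.7 CPM in S2 replicates 1 and 2, and at 0 and 3 counts in S2 replicates 3 and 4. All 9 plasmatocyte markers on the list used (srp, Hml, Pxn, He, nimC1, eater, vkg, Cg25C and Ppn) had counts in each set. So had the 4 markers used for crystal cells and the 4 for lamellocytes, so a count alone does not set plasmatocytes apart. At least 1 CPM in both libraries was reached by 9 plasmatocyte markers in S2 replicates 1 and 2, 6 in S2 replicates 3 and 4 and 7 in S2-AbdA. The comparisons share libraries: S2-AbdA enters the comparisons with both S2 sets, and each S2 set enters 2 comparisons. RNA of whole cultures was measured, so fewer cells expressing a gene and less RNA per cell cannot be told apart.

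Among the 5 receptor genes chosen by symbol, croquemort and draper were the most abundant in each set, and the class C genes were below them. Per kilobase of exon, crq stood at 196 ± 23.8 CPM (SD, n = 2) in S2 replicates 1 and 2, at 91.2 ± 13.4 in S2 replicates 3 and 4 and at 194 ± 8.05 in S2-AbdA. The corresponding values of drpr were 87.6 ± 4.80, 16.8 ± 9.62 and 108 ± 31.2. For Sr-CI they were 16.2 ± 8.66, 0.114 ± 0.0413 and 0.697 ± 0.484. The order crq, drpr, Sr-CI held in each set with no overlap between neighbouring genes. Sr-CII and Sr-CIII lay lowest in each set, at means between 0.0220 and 0.239 CPM per kilobase, and overlapped one another in S2 replicates 1 and 2 and in S2 replicates 3 and 4. In S2-AbdA the library values of Sr-CII (0.0801 and 0.0911) lay above those of Sr-CIII (0 and 0.0542), at counts of 10 or fewer. By level per kilobase, crq ranked between 334 and 1238 from the top among the 14468 genes with a known length, whereas Sr-CI ranked between 3487 and 8933. drpr ranked 988 and 885 in S2 replicates 1 and 2, 4353 and 3324 in S2 replicates 3 and 4, and 1015 and 587 in S2-AbdA.

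The ratio of the 2 abundant receptors varied between libraries. The level of crq per kilobase was 2.13 and 2.34 times that of drpr in S2 replicates 1 and 2, 8.20 and 4.27 times in S2 replicates 3 and 4, and 2.32 and 1.45 times in S2-AbdA. The S2 replicates 3 and 4 libraries were thus the ones with little draper RNA beside croquemort, and the ratio within a library does not depend on its scaling.

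**Figure D1:**
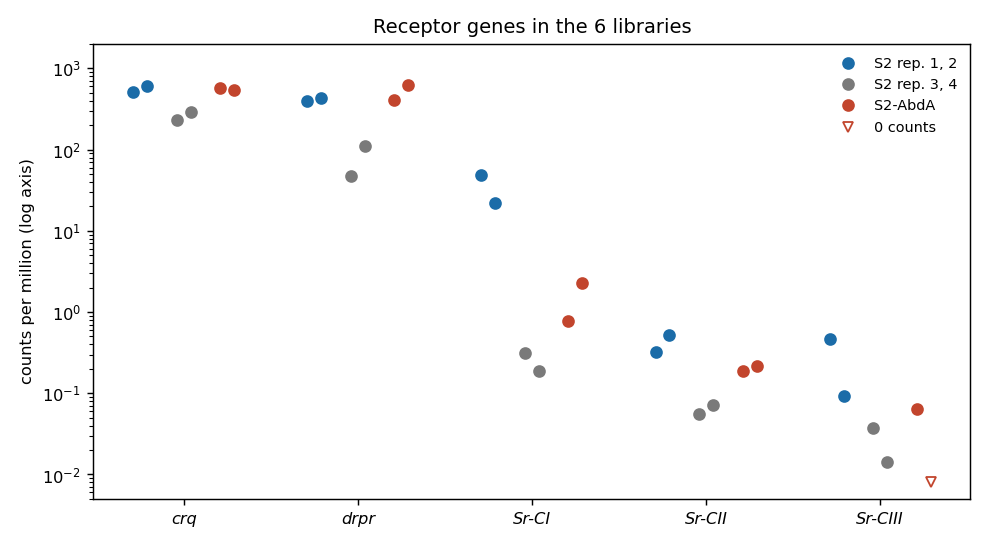
Level of each receptor gene in each library, in CPM on a log axis, with S2 replicates 1 and 2 in blue, S2 replicates 3 and 4 in grey and S2-AbdA in red; the open triangle marks 0 counts and is drawn at an arbitrary height. crq spans 233 to 607 CPM over all libraries, while Sr-CI spans 0.186 to 49.1 CPM, with S2-AbdA between the S2 sets.

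Sr-CI lies on chromosome 2L at 4121702-4124006 (dm3, NCBI gene 33621), with 2202 bases of exon in a later annotation. Its level was 49.1 and 22.1 CPM in S2 replicates 1 and 2 (1680 and 967 counts). In S2 replicates 3 and 4 it was 0.315 and 0.186 CPM (17 and 13 counts). In S2-AbdA it was 0.780 and 2.29 CPM (37 and 106 counts). The 3 sets did not overlap, and S2-AbdA lay between the S2 sets. Sr-CI was the 1 receptor gene of the 4 tested that passed in S2-AbdA against S2 replicates 1 and 2, where 10.4% of all genes tested passed and 7.36% passed as lower. It was lower in S2-AbdA, with a log2 difference of -4.56 (SE 0.63, 95% interval -5.93 to -3.20, adjusted p = 0.000959 by edgeR's quasi-likelihood test), or 23.7-fold. Fitting all 4 S2 libraries as 1 group instead gave -3.58 with an adjusted p of 0.653 and ended the call. In the authors' deposited table, Sr-CI had a log2 ratio of S2-AbdA over S2 of -4.48 and a false discovery rate of 1.26e-33.

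Against S2 replicates 3 and 4, the direction of the Sr-CI difference was the opposite. Sr-CI was higher in S2-AbdA by 2.28 on the log2 scale (SE 0.65, 95% interval 0.87 to 3.70, adjusted p = 0.0319), and with drpr it was 1 of 2 members of 4 that passed, where 31.8% of all genes tested passed and 14.7% passed as higher. This call was lost without S2 replicate 3 (2.91, adjusted p = 0.201), without S2 replicate 4 (1.73, adjusted p = 0.217) and without S2-AbdA replicate 2 (1.28, adjusted p = 0.253). The S2 sets themselves differed in Sr-CI by 115-fold, with replicates 3 and 4 lower (log2 -6.85, SE 0.72, 95% interval -8.42 to -5.28, adjusted p = 0.000109). The difference between the 2 sets of untransfected cells was therefore larger in size than either difference from S2-AbdA, and the sign of the AbdA difference followed the S2 set used.

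Sr-CIII, NCBI gene 44382, lies 74 bases from Sr-CI on the same strand, at chromosome 2L 4120343-4121627 (dm3), with 1168 bases of exon. Its counts were 16 and 4 in S2 replicates 1 and 2, 2 and 1 in S2 replicates 3 and 4, and 3 and 0 in S2-AbdA. In CPM these were 0.467, 0.0914, 0.0370, 0.0143, 0.0633 and 0. Only the 16 and the 4 counts lay above the floor of 3, so a difference between S2-AbdA and S2 replicates 3 and 4 was not detectable at this depth, and none of its values supports a fold change. It was the member that did not pass the filter on low counts and was not tested. With no filter the difference between S2-AbdA and S2 replicates 1 and 2 passed as lower (adjusted p = 0.0414), at 16 and 4 counts against 3 and 0. In the authors' deposited table Sr-CIII had a log2 ratio of -2.90 and a false discovery rate of 0.00188.

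Sr-CII lies apart from these, on chromosome 2R at 8096359-8098730 (dm3, NCBI gene 44219, 2369 bases of exon), with CG13171 at 0 counts in every library as a neighbour. Its counts were 11 and 23 in S2 replicates 1 and 2, 3 and 5 in S2 replicates 3 and 4, and 9 and 10 in S2-AbdA. In CPM these were 0.321 and 0.526, 0.0555 and 0.0716, and 0.190 and 0.216, and the 3 sets did not overlap. Sr-CII had reached the 0.213 CPM that the filter asks for in both libraries of S2 replicates 1 and 2, in 1 of S2-AbdA and in no library of S2 replicates 3 and 4. It thus entered the test through the libraries where it is high, and its difference between the S2 sets is a description: log2 -2.44 (SE 0.59, 95% interval -3.73 to -1.15, adjusted p = 0.0149), over 3 and 5 counts in the lower set. Without S2 replicate 2 it was -2.05 (adjusted p = 0.188). S2-AbdA stood at -1.11 on the log2 scale from S2 replicates 1 and 2 (95% interval -2.25 to 0.03, adjusted p = 0.319) and at 1.33 from S2 replicates 3 and 4 (95% interval -0.03 to 2.70, adjusted p = 0.142), and neither passed the test.

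The class C family has 4 genes in flies, and the remaining one, Sr-CIV, had at most 26 counts in a library. Its log2 differences were 0.42 for S2-AbdA against S2 replicates 1 and 2, 0.14 against S2 replicates 3 and 4, and 0.29 between the S2 sets, and none passed. Of the 3 class C genes tested, Sr-CI alone passed in S2-AbdA against either S2 set, where 10.4% and 31.8% of all genes passed, so that 1 of 3 is near the background against S2 replicates 3 and 4. Between the S2 sets 2 passed, Sr-CI and Sr-CII, both with the lower level in replicates 3 and 4, where 37.0% of all genes passed.

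croquemort (NCBI gene 33219, chromosome 2L 448702-453024, dm3, 2848 bases of exon) had levels of 511 and 607 CPM in S2 replicates 1 and 2. In S2 replicates 3 and 4 they were 233 and 287 CPM, and in S2-AbdA they were 568 and 535 CPM. The S2-AbdA values fell within the range of S2 replicates 1 and 2, and S2 replicates 3 and 4 lay below both other sets. The log2 difference of S2-AbdA from S2 replicates 1 and 2 was -0.06 (SE 0.33, 95% interval -0.78 to 0.66, adjusted p = 0.997), an interval within 2-fold in either direction. From S2 replicates 3 and 4 it was 0.77 (SE 0.33, 95% interval 0.04 to 1.49, adjusted p = 0.116) and did not pass. It did pass in 6 of 13 alternatives: under library size alone (1.09, adjusted p = 0.0437, where the median of all genes was 0.30), with upper quartile scaling (0.87, 0.0777), with at least 10 counts in every library (0.91, 0.0750), without S2 replicate 3 (0.82, 0.0469), without S2 replicate 4 (0.69, 0.0406) and with DESeq2 (0.82, 0.0583).

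crq was 1 of the 4 members tested, Sr-CI, Sr-CII, crq and drpr, that all passed as lower in S2 replicates 3 and 4, compared with replicates 1 and 2, with Sr-CII admitted as described above, where 18.9% of all genes passed as lower, 18.1% as higher and 37.0% in either direction. Its difference was the smallest of them, at 1.77-fold (log2 -0.82, SE 0.33, 95% interval -1.55 to -0.10, adjusted p = 0.0874). The call was lost with the replicate block (adjusted p = 0.370), with no filter (0.139), after removal of a trend with exonic length (-0.56, adjusted p = 0.129), and without S2 replicate 1 (0.272), S2 replicate 2 (0.457), S2-AbdA replicate 1 (0.186) or S2-AbdA replicate 2 (0.182).

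draper (NCBI gene 38218, chromosome 3L 1715595-1730992, dm3, 4757 bases of exon) stood at 401 and 433 CPM in S2 replicates 1 and 2. It stood at 47.4 and 112 CPM in S2 replicates 3 and 4 and at 408 and 618 CPM in S2-AbdA. S2 replicates 3 and 4 lay below every other library, and S2-AbdA overlapped S2 replicates 1 and 2. Compared with S2 replicates 3 and 4, drpr was 5.40-fold higher in S2-AbdA (log2 2.43, SE 0.41, 95% interval 1.54 to 3.33, adjusted p = 0.0026). Replicates 3 and 4 of S2 were 4.49-fold below replicates 1 and 2 (log2 -2.17, SE 0.41, 95% interval -3.05 to -1.28, adjusted p = 0.00353). Both calls held under each of the 13 alternatives run for each, at 1.98 to 2.89 and at -2.62 to -1.75. S2-AbdA minus S2 replicates 1 and 2 was 0.27 (95% interval -0.58 to 1.11, adjusted p = 0.920) and did not pass.

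**Figure D2:**
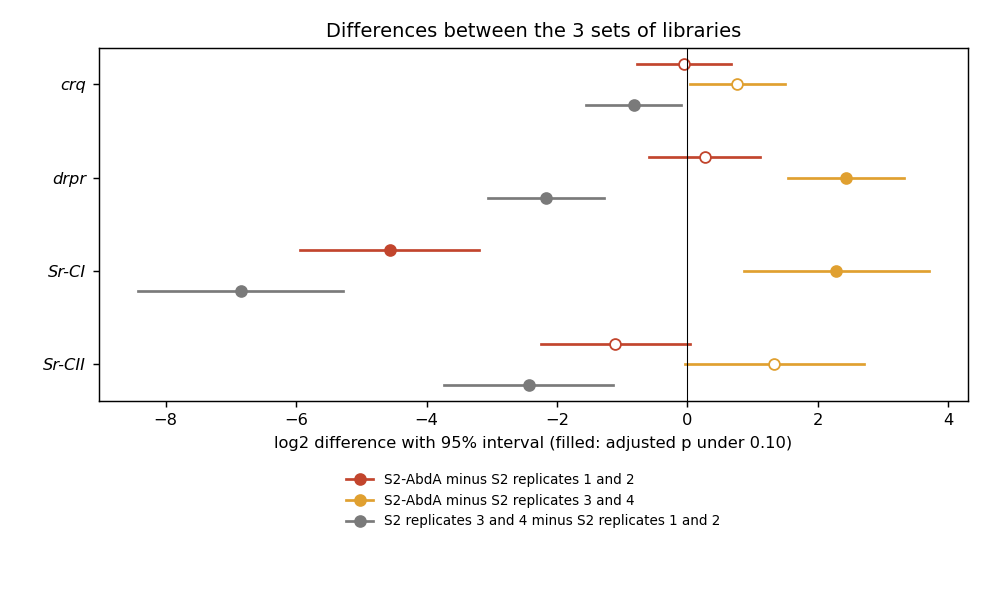
Log2 differences of the 4 tested receptor genes between the 3 sets of libraries, with 95% intervals from edgeR's quasi-likelihood fit; filled points have an adjusted p under 0.10. All 4 grey points lie left of 0, from -6.85 for Sr-CI to -0.82 for crq, and Sr-CI is the gene with a filled red point, at -4.56.

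The dm3 span of drpr holds 2 other genes, CG12035 on the opposite strand and CG18171 on the same strand in the later annotation, and neither shares an exonic base with drpr there. CG18171 had 36 to 227 counts and CG12035 had 5 to 93 counts in a library, against 2560 to 28637 counts for drpr. Whether the authors counted by strand was not given, and reads from introns of drpr over these genes were not examined. CG12035 differed in all comparisons, at -1.44 against S2 replicates 1 and 2 (adjusted p = 0.0600), 2.26 against S2 replicates 3 and 4 (adjusted p = 0.0109) and -3.70 between the S2 sets (adjusted p = 0.000377). At 0.0926 and 0.158 CPM it lay under the filter's level in S2 replicates 3 and 4, so the last 2 values are a description. CG7991, which ends 53 bases from drpr, was higher in S2-AbdA than in S2 replicates 3 and 4 (log2 3.21, adjusted p = 0.000788), and lower in the latter than in S2 replicates 1 and 2 (log2 -2.60, adjusted p = 0.00183). Oseg4, 115 bases to the other side of drpr, passed in no comparison. The genes beside crq, ex at 448 bases and CG4164 at 83 bases, passed in none either, with log2 differences of -1.19 (adjusted p = 0.167) and -0.57 (adjusted p = 0.485) for S2-AbdA against S2 replicates 1 and 2. Beyond the Sr-CIII and Sr-CI pair, ed lay 5906 bases away and was lower in S2 replicates 3 and 4 than in 1 and 2 (log2 -1.79, adjusted p = 0.0347), whereas CG2955, 25272 bases away, had 0 counts throughout.

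In the CD36 family, S2 replicates 3 and 4 lay below the other libraries in most genes, as crq did. The family had 14 genes in the count files, of which 8 were tested. In S2 replicates 3 and 4 against replicates 1 and 2, 0 of the 8 were higher and 6 were lower, where 18.9% of all genes tested passed as lower; the median log2 difference was -1.68 against -0.01 for all genes tested. santa-maria, 1 of those 6, reached the filter's 0.213 CPM in no library of S2 replicates 3 and 4. In S2-AbdA against S2 replicates 3 and 4, 6 were higher and 0 lower, where 14.7% of all genes passed as higher, with a median of 1.47 against -0.01. These 6 were pes, emp, santa-maria, Snmp1, CG7227 and CG40006. Of them santa-maria and CG40006 entered the test through other libraries than S2 replicates 3 and 4, and CG40006 through S2-AbdA alone, where it is high, so their direction was partly set by the filter and the count is a description. That count ranged from 1 to 7 over the alternatives, and the 1 was found without S2-AbdA replicate 2. In S2-AbdA against S2 replicates 1 and 2, 1 was lower and 0 higher, where 7.36% of all genes passed as lower, with a median of -0.23 against -0.02. The median turned to 0.28 with all 4 S2 libraries as 1 group.

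The gene lower in S2-AbdA was CG7227, at 7.74 and 7.40 CPM in S2 replicates 1 and 2, 0.315 and 0.200 in S2 replicates 3 and 4, and 0.569 and 1.21 in S2-AbdA. Its log2 difference from S2 replicates 1 and 2 was -3.12 (adjusted p = 0.0028), and like Sr-CI it was higher than in S2 replicates 3 and 4, by 1.45 (adjusted p = 0.0793). Peste (pes), which is known from the uptake of mycobacteria by S2 cells, had a profile near that of crq at a lower level: 167 and 199 CPM, 36.5 and 88.7 CPM, and 136 and 178 CPM in the same order. It was lower in S2 replicates 3 and 4 than in 1 and 2 by 1.33 on the log2 scale (log2 -1.33, adjusted p = 0.0349) and higher in S2-AbdA than in S2 replicates 3 and 4 (1.07, adjusted p = 0.0743). Snmp1, a coreceptor for pheromones in sensory neurons, gave -3.09 between the S2 sets (adjusted p = 0.0017) and 2.90 for S2-AbdA against S2 replicates 3 and 4 (adjusted p = 0.0035). CG3829 passed in no comparison. The 6 untested genes of the family (ninaD, Snmp2, CG1887, CG2736, CG10345 and CG31741) had at most 6 counts in a library.

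**Figure D3:**
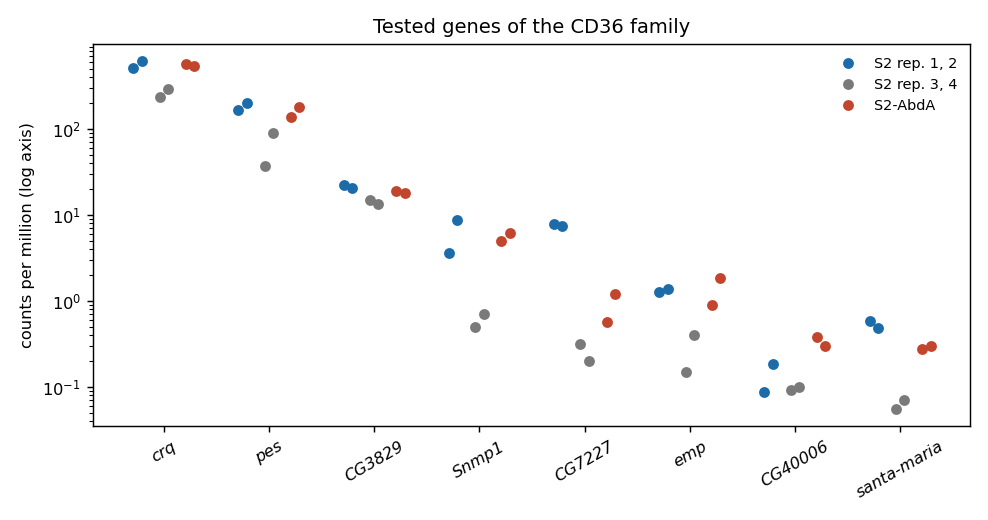
Levels of the 8 tested CD36 family genes in each library, in CPM on a log axis, ordered by mean level per kilobase; colours mark S2 replicates 1 and 2 (blue), S2 replicates 3 and 4 (grey) and S2-AbdA (red). The grey points lie below both other sets for every gene shown but CG40006, and CG7227 is the gene whose red points lie far below the blue ones.

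Genes known to act with Draper were described by lists, each counted by the test over all genes. The list of ligands holds prtp and CaBP1, proteins of the endoplasmic reticulum found on apoptotic cells, with Crc (calreticulin) and orion, which the files call l(1)G0193. In S2-AbdA against S2 replicates 1 and 2, edgeR passed 0 of these 4, 0 had an unadjusted p under 0.05 and DESeq2 passed 0. Of all genes tested, 10.4% passed there by edgeR. CaBP1 had the smallest p, with a log2 difference of -0.60 (adjusted p = 0.478). prtp went the other way from drpr: it was higher in S2 replicates 3 and 4 than in 1 and 2 by 1.18 (adjusted p = 0.0622) and lower in S2-AbdA than in S2 replicates 3 and 4 (log2 -1.18, adjusted p = 0.0671). Both calls were lost under library size alone (adjusted p = 0.140 and 0.161), with at least 10 counts in every library (0.103 and 0.111), with the replicate block (0.226 and 0.217), without S2 replicate 2 (0.328 and 0.107) and without S2 replicate 3, where prtp differed by 0.45 and -0.45. The call between the S2 sets was also lost without S2 replicate 1 (0.187), and that for S2-AbdA without either S2-AbdA library (0.104 and 0.330).

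The Draper signalling list holds drpr itself with ced-6, shark, Src42A, Src64B, csw, 14-3-3zeta, Pvr and Pi3K92E, and all 9 were tested. In S2-AbdA against S2 replicates 1 and 2, edgeR and DESeq2 passed 0 of them and 2 (ced-6 and csw) had an unadjusted p under 0.05. Of all genes tested, 10.4% passed there by edgeR. csw, which encodes a tyrosine phosphatase, was at 0.99 in that comparison (adjusted p = 0.254), and ced-6 at 0.79 (adjusted p = 0.263). The edgeR count did not stay at 0 without S2 replicate 3 or 4, where more of all genes passed too. Against S2 replicates 3 and 4, 4 of the 9 were higher in S2-AbdA and 0 lower, where 14.7% of all genes passed as higher, with a median of 0.74 against -0.01: drpr, csw (1.71, adjusted p = 0.0229), ced-6 (1.03, adjusted p = 0.0557) and Pi3K92E (0.97, adjusted p = 0.0952). Over the alternatives the median was 0.38 to 1.21, and the number of calls varied. Between the S2 sets drpr was the 1 of the 9 that passed, with a median of -0.41. In the same fit, 18.9% of all genes passed as lower in S2 replicates 3 and 4 than in 1 and 2, and 37.0% in either direction. More of the 9 passed without S2 replicate 4, where more of all genes passed too. Among the kinase genes, Src42A was at 0.18 and shark at -0.57 between the S2 sets, and neither passed.

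Downstream modules were counted beside the share of all genes that passed. It was 10.4% in S2-AbdA against S2 replicates 1 and 2, 31.8% against S2 replicates 3 and 4 and 37.0% between the S2 sets. In the CED-12 and Rac module, which moves the actin cytoskeleton in engulfment, edgeR passed 0 of 7 genes in S2-AbdA against S2 replicates 1 and 2, with 1 (Mtl, log2 0.94, adjusted p = 0.173) at an unadjusted p under 0.05 and 1 passed by DESeq2. Against S2 replicates 3 and 4 edgeR passed 0 and DESeq2 2, the number at an unadjusted p under 0.05. Over the alternatives the median log2 difference of the module was -0.17 to 0.05 against S2 replicates 1 and 2. Against S2 replicates 3 and 4 it was -0.11 to 0.31. Neither count stayed at 0 without S2 replicate 4, where more of all genes passed too. Ced-12 was lower between the S2 sets (log2 -1.07, adjusted p = 0.0983). Of 10 genes of phagosome maturation edgeR passed 0 in each of the 3 comparisons, with 0, 1 and 1 at an unadjusted p under 0.05 and as many passed by DESeq2 in the order given above. Over the alternatives their median log2 difference was -0.07 to 0.40 between the S2 sets. For S2-AbdA against S2 replicates 3 and 4 it was -0.27 to 0.27. Calls in these 2 comparisons did not stay at 0 without S2 replicate 4, where more of all genes passed too. Among the phagosome maturation genes, lt had the smallest p in S2-AbdA against S2 replicates 1 and 2, at 0.60 (adjusted p = 0.514). It encodes a subunit of the vesicle tethering complex HOPS. In the store-operated calcium group, RyR (Rya-r44F in the files), the ryanodine receptor, stood at 1.22 and 0.561 CPM in S2-AbdA and at 0.0185 to 0.206 CPM in S2. It entered the test through S2-AbdA alone, where it is high, so its differences from S2 replicates 1 and 2 (2.50, adjusted p = 0.0567) and 3 and 4 (2.67, adjusted p = 0.0248) are a description.

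Other receptors for apoptotic cells and bacteria included several that changed. Of 8 tested, 4 were lower and 1 higher in S2-AbdA against S2 replicates 1 and 2, where 7.36% of all genes were lower, with a median of -1.23 against -0.02. With S2 replicates 3 and 4 as the reference, 5 were higher and 0 lower, where 14.7% of all genes were higher, with a median of 1.23 against -0.01. In S2 replicates 3 and 4 compared with 1 and 2, 5 were lower and 1 higher, where 18.9% and 18.1% of all genes were, with a median of -2.68 against -0.01. nimC1 is among the last 2 counts and reached the filter's level in no library of S2 replicates 3 and 4. The count against S2 replicates 3 and 4 was 1 without S2-AbdA replicate 2. The median against S2 replicates 1 and 2 was 0.02 when at least 10 counts were asked for in every library.

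Eater and nimC1, EGF-repeat receptors for bacteria, had differences of the same signs as Sr-CI. eater stood at 84.9 and 66.1 CPM in S2 replicates 1 and 2, 1.07 and 0.744 in S2 replicates 3 and 4, and 2.30 and 9.60 in S2-AbdA. Its log2 differences were -3.69, 2.36 and -6.05 in the order of comparisons given above (adjusted p = 0.0029, 0.0232 and 0.0002). nimC1 stood at 1.96 and 2.19 CPM in S2 replicates 1 and 2, 0 and 0.0429 CPM (0 and 3 counts, the floor) in S2 replicates 3 and 4, and 0.169 and 0.259 CPM in S2-AbdA. Its log2 difference of S2-AbdA from S2 replicates 1 and 2 was -3.30 (adjusted p = 0.0029), and no size is given against the set at the floor. The differences of betaInt-nu, an integrin subunit that acts in engulfment, were -2.48, 1.16 and -3.63 (adjusted p = 0.0038, 0.0768 and 0.0003). nimC4, which encodes a receptor for apoptotic cells that acts upstream of Draper, took another course. It stood at 5.20 and 4.71 CPM in S2 replicates 1 and 2, 40.8 and 14.1 in S2 replicates 3 and 4, and 68.5 and 69.6 in S2-AbdA. nimC4 was 13.6-fold higher in S2-AbdA than in S2 replicates 1 and 2 (log2 3.76, adjusted p = 0.0017), 0.90 above S2 replicates 3 and 4 without passing (adjusted p = 0.220), and higher in S2 replicates 3 and 4 than in 1 and 2 by 2.87 (adjusted p = 0.0042).

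**Figure D4:**
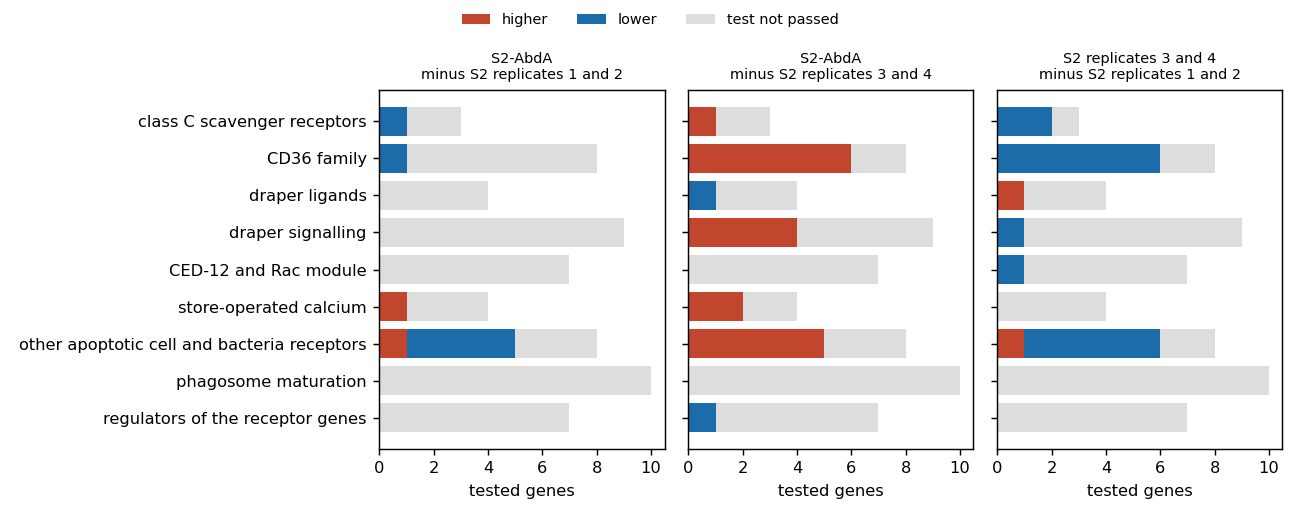
Number of tested genes in each list that were higher (red) or lower (blue) at an adjusted p under 0.10 by edgeR's quasi-likelihood test, or did not pass (grey), in each of the 3 comparisons. Of the CD36 family 6 of 8 genes are higher in S2-AbdA than in S2 replicates 3 and 4, with 2 of the 6 below the filter's level in every library of the latter, and none of the 10 phagosome maturation genes passes in any comparison.

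Transcription factors known in blood cells or upstream of these receptors (srp, ush, Stat92E, kay, Jra, EcR and usp) gave 0 of 7 by edgeR in S2-AbdA against S2 replicates 1 and 2, 1 at an unadjusted p under 0.05 and 0 by DESeq2. That 1 was srp, which encodes a GATA factor of blood cells, at -1.17 (adjusted p = 0.228). Of all genes tested, 10.4% passed there by edgeR. Stat92E, 1 of the 7, was lower in S2-AbdA than in S2 replicates 3 and 4 (log2 -0.82, adjusted p = 0.0999), where 17.1% of all genes passed as lower. Between the S2 sets edgeR passed 0 of the 7, where 37.0% of all genes passed. There 2 (srp and ush) had an unadjusted p under 0.05 and DESeq2 passed 2. The edgeR count between the S2 sets did not stay at 0 without S2 replicate 4, where more of all genes passed too.

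Some markers of blood cell types and glia also differed between the sets, not all in the direction of the receptors. The summed level of the 9 plasmatocyte markers was 8122 to 9617 CPM in S2 replicates 1 and 2, 2030 to 5884 CPM in S2 replicates 3 and 4 and 5758 to 6601 CPM in S2-AbdA. Most of each sum was Cg25C and vkg, at 957 to 5337 CPM and 677 to 3079 CPM over the libraries. Of those 9, 4 were lower and 0 higher in S2-AbdA against S2 replicates 1 and 2, among them Pxn (log2 -3.01, adjusted p = 0.0193) and He (-1.99, adjusted p = 0.0267), and 5 were lower and 0 higher in S2 replicates 3 and 4 against 1 and 2, where 7.36% and 18.9% of all genes were lower. In the comparison with S2 replicates 3 and 4, 2 of the 9 (nimC1 and eater) were higher in S2-AbdA and 1, Pxn, was lower (log2 -3.46, adjusted p = 0.009). Of all genes, 14.7% passed there as higher and 17.1% as lower, and Sr-CI and drpr were higher. nimC1, also 1 of the 5 lower between the S2 sets, reached the filter's level in no library of S2 replicates 3 and 4. Between the S2 sets Pxn did not pass (0.45, adjusted p = 0.619). The 4 crystal cell markers summed to 15.1 and 90.2 CPM in S2 replicates 1 and 2, and to between 0.907 and 2.33 CPM elsewhere. In S2-AbdA against S2 replicates 1 and 2, 3 of the 4 were lower, where 7.36% of all genes were: proPO-A1 (log2 -5.76, adjusted p = 0.0017), proPO45 (-4.14, adjusted p = 0.0356) and lz (-3.15, adjusted p = 0.0197). proPO45 and lz reached the filter's level in no S2-AbdA library. That count was 2 under library size alone, 1 without S2 replicate 1, 3 or 4, and 0 with all S2 libraries as 1 group. lz was at 0 in S2 replicate 3. Against S2 replicates 3 and 4, 0 of the 4 crystal cell markers passed. In S2 replicates 3 and 4 compared with 1 and 2, 3 of them were lower, where 18.9% of all genes were. Of these, lz reached the filter's level in no library of S2 replicates 3 and 4. The 4 lamellocyte markers summed to 640 to 795 CPM, 196 to 483 CPM and 523 to 627 CPM in the 3 sets, in the order used above. Most of each sum was msn, at 605 and 751 CPM, 169 and 465 CPM, and 596 and 497 CPM. The marker atilla had at most 5 counts in a library and was not tested. Of the 3 tested, alphaPS4 was lower in S2-AbdA than in S2 replicates 1 and 2 (log2 -1.53, adjusted p = 0.0793). The 7 glial markers, read because Draper is known from glia, summed to 377 to 410 CPM, 277 to 312 CPM and 433 to 460 CPM. Most of each sum was nrv2 and loco, at 113 to 178 CPM and 68.9 to 250 CPM over the libraries. gcm was at 0.117 and 0.251 CPM in S2 replicates 1 and 2, at 0 in S2 replicates 3 and 4, and at 0.359 and 7.77 CPM in S2-AbdA, and passed as higher there than in S2 replicates 1 and 2 (4.38, adjusted p = 0.0392), a call that was lost without S2-AbdA replicate 2, without any 1 of the S2 libraries, under library size alone and with DESeq2. Of the 5 glial markers tested, 3 (gcm, loco and Eaat1) were higher in S2-AbdA than in S2 replicates 3 and 4, where 14.7% of all genes passed as higher. Between the S2 sets 2 (loco and Eaat1) passed with the lower level in replicates 3 and 4, where 18.9% of all genes passed as lower and 37.0% in either direction. gcm reached the filter's level in S2-AbdA and 1 library of S2 replicates 1 and 2, and in no library of S2 replicates 3 and 4. repo, which defines glia, had at most 8 counts in any library. The part of these cell types in the receptor differences was not tested.

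The genes nearest in profile to each receptor were sought among 6930 genes with at least 5 CPM in 2 or more libraries, by the root mean square difference of centred log2(scaled CPM + 0.5) over the 6 libraries. For Sr-CI they were eater, nimB4 and CG6357, at 0.378, 0.383 and 0.412. nimB4, of the same EGF-repeat gene family as eater, stood at 23.0 and 8.25 CPM in S2 replicates 1 and 2, 0.0185 and 0.10 in S2 replicates 3 and 4, and 0.316 and 1.47 in S2-AbdA. For crq they were CG5059, Esyt2 and Atg18, at 0.0674, 0.0750 and 0.0885. CG5059, named BNIP3 in the later annotation, stood at 256 and 287, 126 and 153, and 293 and 263 CPM. For drpr they were CG14961, Hex-A and RhoGAP93B, at 0.158, 0.172 and 0.177, and Hex-A, a hexokinase, stood at 140 and 141, 14.8 and 43.7, and 121 and 259 CPM. The crq profile spans a narrower range than the others, and its differences are not comparable in size with theirs. For Sr-CII the nearest were CG3061, CG9527 and CG16965, at 0.0452, 0.0967 and 0.108, but its levels lie around or under the 0.5 CPM added, which flattens the profile, and its neighbours are not read further.

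**Figure D5:**
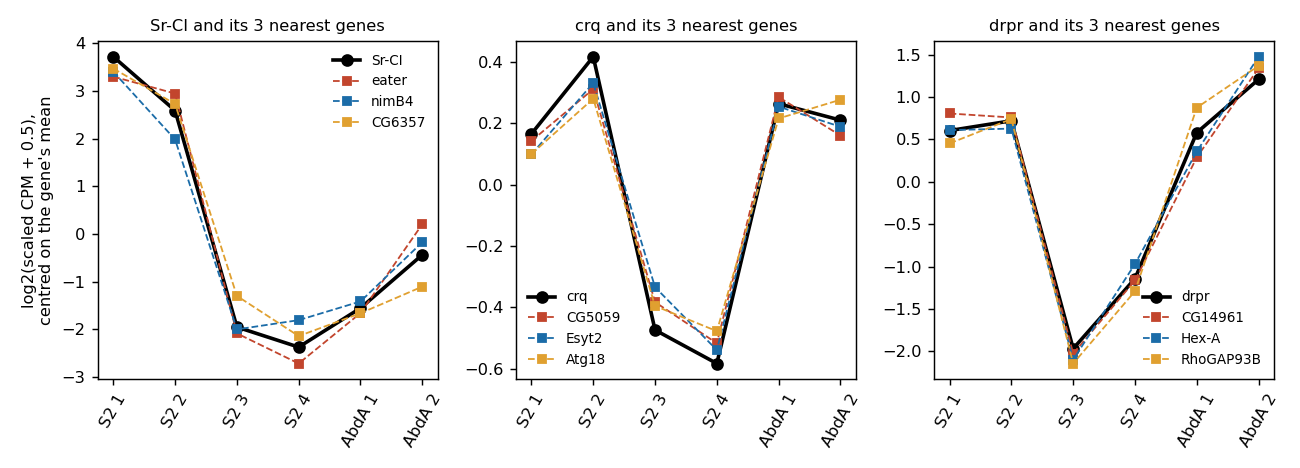
Profiles of Sr-CI, crq and drpr (black) and of the 3 genes nearest to each (dashed) over the 6 libraries, as log2(scaled CPM + 0.5) centred on each gene's mean; lines join libraries for the eye and the vertical scales differ between panels. Sr-CI and its neighbours are high in S2 replicates 1 and 2 and low elsewhere, while crq and drpr are low in S2 replicates 3 and 4.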

How the data were processed

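The 6 libraries were grouped by their titles. For each library the authors deposited raw counts per gene, not normalized, each row naming the gene by symbol and NCBI number with its dm3 position. The submitters' processing notes name CASAVA, edgeR and dm3 and give no version; aligner, counter, annotation release and strand setting were not found in the labels or headers. A second file that the authors deposited lists 2122 genes with log2 values, p-values and false discovery rates, all under 0.10. Per the file headers the log2 values are a log concentration and a log fold change. Compared with the counts, the headings were exchanged: the column headed logConc correlated across genes at -0.942 with log2 S2-AbdA over S2 (replicates 1 and 2), and was turned around.

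CPM are counts over the library total. Exonic lengths and strands came from BDGP6.54 through the NCBI gene number (14468 of 14770 genes); coordinates are dm3. In R 4.3.3 with edgeR 4.0.16, filterByExpr on the 3 sets kept 9375 genes, libraries were scaled by TMM (factors 0.752 to 1.10), and 1 mean per set was fitted to all 6 libraries. The quasi-likelihood F test with robust dispersion was adjusted by Benjamini-Hochberg over all genes, with a threshold of 0.10. Standard errors are the log2 difference over the square root of F. The fit was checked on simulated counts for S2-AbdA against S2 replicates 1 and 2. It called 14.1% of true 2-fold changes, 86.6% of 4-fold and 100% of 8-fold ones, and 0.111% of unchanged genes. Lists with 0 calls may therefore hold 2-fold changes that the test would mostly miss. DESeq2 1.42.0 and other scalings, filters, a replicate block, a length trend and left-out libraries were alternatives. The libraries within each set were not copies of one another (chi-square per gene 74.3, 812 and 215). Libraries of different sets were not compared in this way. Totals of 34233132 to 69858688 counts set the precision, and the floor of 3 counts covers counting error only.

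The receptors, the gene lists and the tests were chosen with earlier results of these data known. All 5 receptors, their neighbours, the 3 genes nearest in profile and, from each list, up to 4 genes of smallest adjusted p past the test in S2-AbdA against S2 replicates 1 and 2 (or the 1 of smallest p) were named by rule. proPO-A1, proPO45, lz and gcm are named by that rule among the marker lists. Other genes named were chosen after their values were seen.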

Additional observations from a re-analysis of the deposited data

Results flagged for a closer look

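Sr-CIII in S2 was set apart by 1 library. Among the 4 S2 libraries, S2 replicate 1 (16 counts, 0.467 CPM) lay so far above the next (4 counts, 0.0914 CPM) that the gap made up 0.83 of the range, just past Dixon's 95% critical value for 4 values. On the log2(CPM + 0.5) scale the share was 0.779 and did not pass. Chance passes about 1 in 20 groups, and 5 genes were examined on 2 scales.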

How the results depend on the processing

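The 12 tested differences of the receptors gave 161 values over the alternatives, of which 140 kept their direction and their side of the threshold. Those of drpr that passed held throughout, and that of Sr-CI against S2 replicates 1 and 2 held in all but the fit of all 4 S2 libraries as 1 group. 3 values turned sign, none of them past the test: crq in S2-AbdA against S2 replicates 1 and 2 was 0.094 without S2 replicate 2 (-0.18 to 0.094 with any library left out) and 0.29 with all S2 libraries as 1 group, and drpr was -0.080 without S2-AbdA replicate 2 (-0.080 to 0.55). The number of receptor genes that passed in S2-AbdA against S2 replicates 1 and 2, 1 as reported, was 2 with no filter (Sr-CI and Sr-CIII), 0 with all S2 libraries as 1 group and 1 to 2 with a library left out. Against S2 replicates 3 and 4 it was 2 as reported (Sr-CI and drpr), 3 with crq added under library size alone, upper quartile scaling, at least 10 counts in every library and DESeq2, and 1 to 2 with a library left out: drpr alone without S2-AbdA replicate 2, and crq and drpr in place of Sr-CI and drpr without S2 replicate 3 or 4; between the S2 sets it was 4 as reported and 3 to 5. Scaled by TMM, mean levels moved by more than their spread for crq in S2 replicates 3 and 4 (298 CPM) and S2-AbdA (507 CPM) and for drpr in S2 replicates 1 and 2 (393 CPM).

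Counts over all genes moved more. In S2-AbdA against S2 replicates 1 and 2, 971 genes passed as reported, 539 with at least 10 counts in every library, 1744 with replicates 1 and 2 of both groups alone, 46 with all S2 libraries as 1 group, and 658 to 1829 with a library left out, the most without S2 replicate 3. Against S2 replicates 3 and 4, 2977 passed, and 1054 (without S2-AbdA replicate 2) to 5992 (without S2 replicate 4) with a library left out. Between the S2 sets 3470 passed, 2269 with at least 10 counts in every library, and 1048 (without S2 replicate 2) to 6354 (without S2 replicate 4) with a library left out. Under library size alone the median of all genes was 0.30 against S2 replicates 3 and 4 and -0.27 between the S2 sets, and the calls divided into 1538 higher and 782 lower, and 760 higher and 1738 lower; with TMM they were 1377 and 1600, and 1698 and 1772. The cause of these shifts was not tested.

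The labels do not pair same-numbered libraries, and the deviations of the 2 pairs correlated at -0.0087. With the replicate block 1318 genes passed against S2 replicates 3 and 4 and 1478 between the S2 sets, and crq between the S2 sets no longer passed (adjusted p = 0.370). At 0 to 23 counts, Sr-CII and Sr-CIII are limited by depth.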
